A study of Mus musculus
Rattus norvegicus and Mus musculus and Rattus norvegicus with 95 samples.

Results

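Embryoid bodies (EBs) of MR2-1, a line of mouse-rat allodiploid embryonic stem cells (AdESCs), were compared with undifferentiated AdESCs of the same line, cell by cell. The members were the 12 single cells whose table headers name MR2-1 and EB and the 8 headed as MR2-1 stem cells, 20 of the 87 single cells and of the 95 samples in all. The EB cells came from MR2-1 AdESCs, and their labels give neither a day nor a culture protocol; the AdESC cells are labelled as embryonic stem cells in G0/G1. Each AdESC carries a mouse and a rat chromosome set in 1 nucleus, a feature that both groups share. A second line, RM1-1, gave 5 EB cells and 4 AdESC cells by the same labels. The headers carry 1 repeated name a group, so cells are given letters in column order, A to L for EBs and A to H for AdESCs. No label says that the cells of a group came from more than 1 culture, so each group counts as 1 sample. The difference between MR2-1 EBs and AdESCs was therefore described without a test.

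When stem cells aggregate into EBs, they lose the transcription factors that hold pluripotency, and an outer layer usually turns into primitive endoderm. In the mouse, Gata6, Gata4 and Sox17 drive that layer, which gives rise to visceral endoderm, a nutrient-absorbing epithelium rich in apolipoproteins, and to parietal endoderm, migratory cells that lay down a thick basement membrane of collagen IV and laminin. Inside an EB, epiblast-like cells can pass through a primitive streak state into mesoderm, from which endothelium, blood and muscle form.

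Expression was given as FPKM, which scales fragments to the length of the transcript and the size of the library, and no read counts were given. The table held 13926 homologues of mouse and rat. Summed FPKM ran from 273427 to 373928 in EB cells and from 264923 to 386819 in AdESC cells. At 1 FPKM or more there were 4413 to 6076 genes in EB cells and 4864 to 5861 in AdESC cells. EB cell J stood apart. Its median correlation with the other 11 EB cells, across 7929 genes, was 0.525, against 0.626 to 0.683 for each of those 11. With the RM1-1 EB cells it was 0.571, within the 0.531 to 0.617 of the other 11. AdESC cell H had a median correlation of 0.603 with the other AdESC cells, against 0.710 to 0.758 for the other 7. The G0/G1 label of the AdESC cells stood beside high mitotic transcripts: Ube2c, a ubiquitin-conjugating enzyme of mitotic exit, was at 104 to 678 FPKM, and 9 to 12 of 12 G2/M genes were at 10 FPKM or more in each of the 8 cells. Which chip or day each group was captured on is not given, so a capture effect and the EB state cannot be told apart.

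Of the genes in the table, 7929 reached 1 FPKM on average over the EB and AdESC samples. Among these, the mean log2(FPKM + 1) was higher in EB cells by 2 or more for 513 genes (6.47%) and lower by 2 or more for 568 genes (7.16%). With the log2 of each group's mean FPKM in place of the mean log2, the balance turned, with 889 genes higher and 670 lower. The median difference over all 7929 was -0.19. Of the 513, 72 were listed at 0 in every AdESC cell, and of the 568, 65 were listed at 0 in every EB cell. Every EB cell lay above every AdESC cell for 64 genes (0.807%) and below every one for 77 (0.971%). The counts given below for each list of genes are to be read beside these shares of all 7929 genes. The only test over samples set the MR2-1 and RM1-1 EB means against the AdESC means of 4 lines with limma, and called 345 of 7936 genes up (4.35%) and 615 down (7.75%) at an adjusted p under 0.05. With the cell line as a replicate block, which pairs the MR2-1 and RM1-1 samples, limma called 52 up and 150 down. Genes are said below to have risen or fallen only where the limma test without the block called them, and its p-values speak only of the spread among these 6 samples. With RM1-1 EBs left out, limma set the lone MR2-1 EB sample against 4 AdESC samples, on the assumption that EBs vary as AdESCs do, and called 519 of 7777 genes up (6.67%) and 621 down (7.99%). With MR2-1 EBs left out instead, the excess of falls turned round, with 479 genes up and 404 down in limma.

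**Figure D1:**
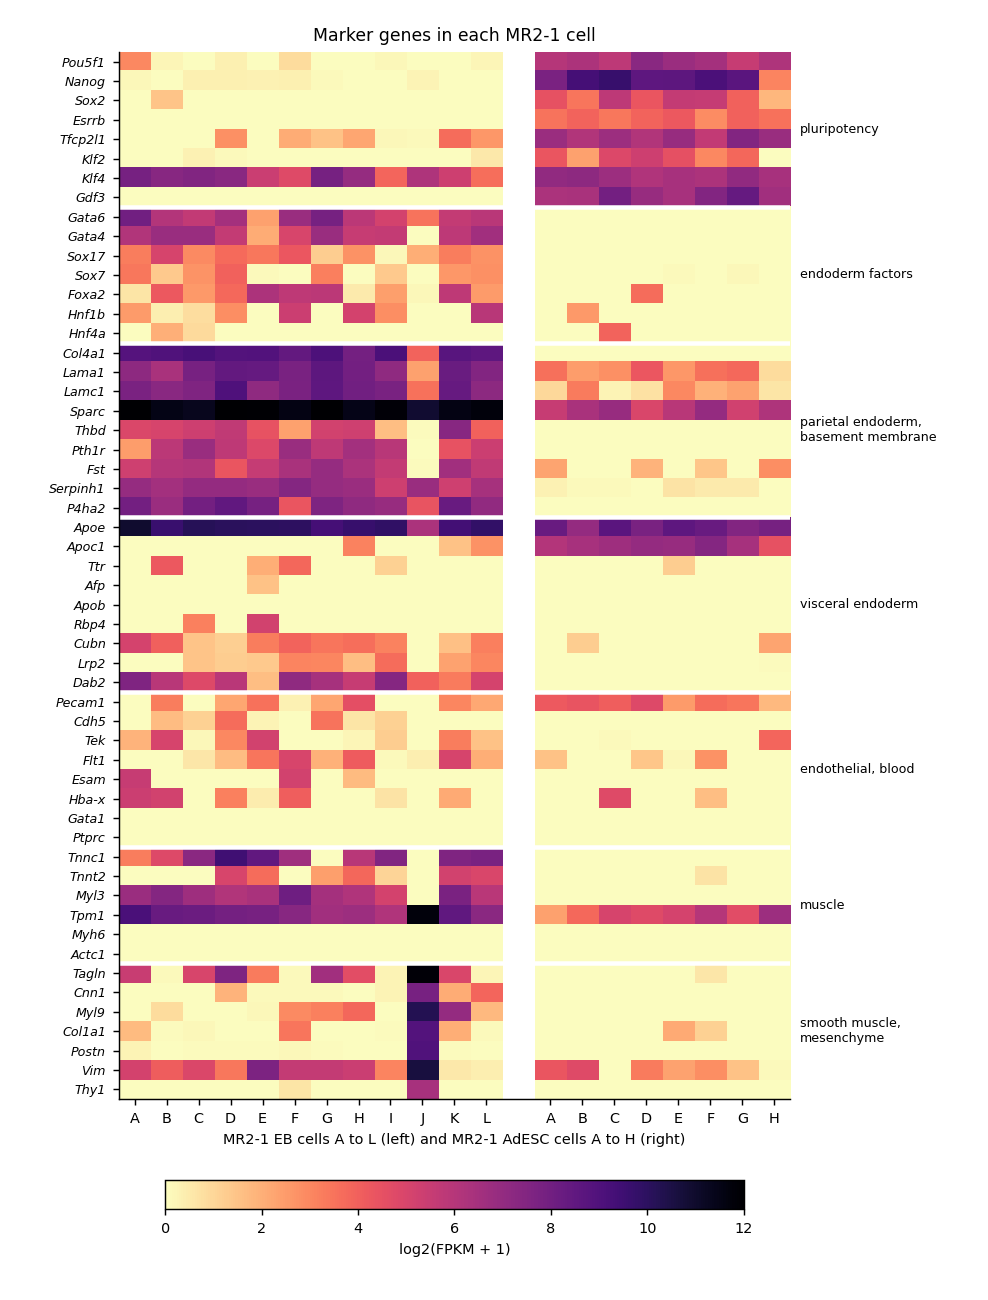
Level of each marker gene, as log2(FPKM + 1) by colour, in the 12 MR2-1 EB cells (left, A to L) and the 8 MR2-1 AdESC cells (right, A to H). Pou5f1, Nanog and Sox2 are darker on the AdESC side, the basement membrane genes are darker across the EB cells, and EB cell J is the darkest cell for the smooth muscle and mesenchyme genes shown.

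The pluripotency core was lost from all 12 EB cells. Nanog, a homeobox factor of the naive state (chromosome 6, 122707489 to 122714633, GRCm38), had a lowest, median and highest value of 0, 0.0992 and 0.295 FPKM in EB cells, against 7.46, 403 and 816 FPKM in AdESC cells. The groups did not overlap, and the lowest AdESC value was that of cell H. Nanog fell by 8.51 on the log2 scale in the limma test (SE 0.38, adjusted p = 7.9e-07). Pou5f1, the POU factor known as Oct4, was at 0, 0.0680 and 6.98 FPKM in EB cells, against 44.006, 74.4 and 154 FPKM in AdESC cells. Sox2, its DNA-binding partner, was at 0, 0 and 1.78 FPKM in EB cells, against 2.55, 20.2 and 54.2 FPKM in AdESC cells. Both separated every EB cell from every AdESC cell, and both fell in the limma test (adjusted p = 1.5e-05 for Pou5f1 and 0.00030 for Sox2). The fourth core gene listed, Sall4, was not analysed here. No EB cell had a level of any of the 3 genes in the range of AdESC cells. The highest EB value of Pou5f1, 6.98 FPKM, was the only one of the 12 at 1 FPKM or more.

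Most of the naive network followed, but not all of it. Of 18 listed genes 15 were in the table and 14 past the filter; 10 were lower by 2 or more, none was higher, and the median difference was -3.37. Esrrb, a nuclear receptor, was listed at 0 in all 12 EB cells and ran from 6.27 to 18.0 FPKM in AdESC cells. Tfcp2l1, a grainyhead-type factor, was at 0, 1.02 and 12.0 FPKM in EB cells, against 48.6, 106 and 179 FPKM in AdESC cells, and fell in the limma test (adjusted p = 1.5e-05). Klf2, a Krüppel-like factor, reached at most 0.468 FPKM in EB cells, against a median of 16.3 and a highest value of 39.1 FPKM in AdESC cells. Klf4, from the same family, was retained at 11.4, 95.8 and 230.3 FPKM in EB cells, against 70.6, 93.2 and 139 FPKM in AdESC cells. Its MR2-1 groups overlapped with a difference of -0.48, whereas in RM1-1 Klf4 was at 0 to 64.6 FPKM in EB cells, against 42.7 to 124 FPKM in AdESC cells, a difference of -5.28. Klf5 overlapped likewise in MR2-1, with a median of 16.3 FPKM in EB cells and 16.5 FPKM in AdESC cells. Lifr and Il6st, the subunits of the receptor for the self-renewal factor LIF, differed by 0.60 and -0.30. Trh, the precursor of thyrotropin-releasing hormone, and Pramel6, a leucine-rich repeat protein of naive cells, were each at 1 FPKM or more in 1 EB cell, with medians of 137 and 128 FPKM in AdESC cells. Zfp57, a zinc-finger protein that protects imprints, was at 0, 23.02 and 46.5 FPKM in EB cells, against 58.5, 188 and 228 FPKM in AdESC cells, so it fell but was not lost.

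Secreted and metabolic stem cell genes showed the same split. Of 20 listed effectors 10 were in the table, all past the filter, and 8 were lower by 2 or more, with a median difference of -2.69. Gdf3, a ligand of the TGF-beta family, was listed at 0 in all 12 EB cells and ran from 77.4 to 324 FPKM in AdESC cells. Lefty1 and Lefty2, secreted Nodal antagonists, differed by -4.90 and -2.81, and the Lefty2 call was lost with the replicate block (adjusted p = 0.053 in limma). Tdh, the threonine dehydrogenase of mouse stem cells, was at 0, 19.4 and 141 FPKM in EB cells, against 4.52, 349 and 456 FPKM in AdESC cells. Slc2a3, a glucose transporter, had medians of 0.0313 FPKM in EB cells and 82.3 FPKM in AdESC cells, and the groups did not overlap. Lin28a, an RNA-binding protein that blocks let-7 maturation, was kept, at 0.381, 21.2 and 88.3 FPKM in EB cells, against 0.5005, 32.2 and 73.2 FPKM in AdESC cells, with cells J and H the lowest of their groups. Dnmt3l, a cofactor of de novo DNA methylation, split the EB cells: B, C, E and J were at 0.0664 to 0.160 FPKM and the other 8 at 33.96 to 215 FPKM, against 135 to 238 FPKM in 7 AdESC cells and 1.55 FPKM in cell H.

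There was little trace of a primed or streak state in the 12 cells. Of 12 primed epiblast genes 10 were in the table and 7 past the filter, with 2 lower by 2 or more, Nodal among them, and none higher. Otx2, a homeobox factor of the primed epiblast, was listed at 0 in all 12 EB cells, against 37.7 FPKM in AdESC cell H and 0 in the other 7. Fgf5, the classical primed marker, was listed at 0 in all 20 cells. Of 12 primitive streak and definitive endoderm genes 11 were in the table, and 8, among them Mixl1, Mesp1 and Evx1, were listed at 0 in all 20 cells. T, the streak factor Brachyury, was listed at 0 in every EB cell and reached 19.9 FPKM in AdESC cells. In RM1-1 EB cells T reached 223 FPKM.

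Primitive endoderm factors were on in EB cells and off in AdESC cells. All 7 listed factors were in the table and past the filter, 4 were higher by 2 or more, none was lower, and the median difference was 2.90. Gata6, the zinc-finger factor at the top of the programme, was at 4.13, 57.1 and 249.6 FPKM in EB cells and listed at 0 in all 8 AdESC cells. Gata4, its close relative, was at 0, 50.8 and 114 FPKM in EB cells and listed at 0 in all AdESC cells, and the EB cell at 0 was J. Gata6 was thus present in all 12 EB cells and Gata4 in 11. Sox17, an HMG-box endoderm factor, was at 0.1098, 7.54 and 31.5 FPKM in EB cells and listed at 0 in AdESC cells. Foxa2, a forkhead factor, varied widely, at 0.130 to 75.4 FPKM in EB cells, with E, F, G and K above 50 FPKM, against 0 in 7 AdESC cells and 11.6 FPKM in cell D. Hnf4a, a nuclear receptor of visceral endoderm, stayed at 2.97 FPKM or less in EB cells and reached 14.1 FPKM in AdESC cell C. EB cell E had a Gata6 value of 4.13 FPKM and a Gata4 value of 3.19 FPKM with the highest Foxa2 value, 75.4 FPKM. At 10 FPKM or more, at least 3 of the 7 factors were present in 7 of the 12 EB cells and in none of the 8 AdESC cells. Over the lines, Gata6 rose in the limma test by 3.49 (SE 0.88, adjusted p = 0.028), a call that was lost with the replicate block (adjusted p = 0.10). It was also lost in limma without the MR1-1, MR2-1, RM1-1 or RM2-1 AdESCs (adjusted p = 0.077, 0.075, 0.066 and 0.074) and with no filter on low values (0.23). Of the 5 factors tested it was the only one called, while 5 of 5 were called in the limma fit without RM1-1 EBs.

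**Figure D2:**
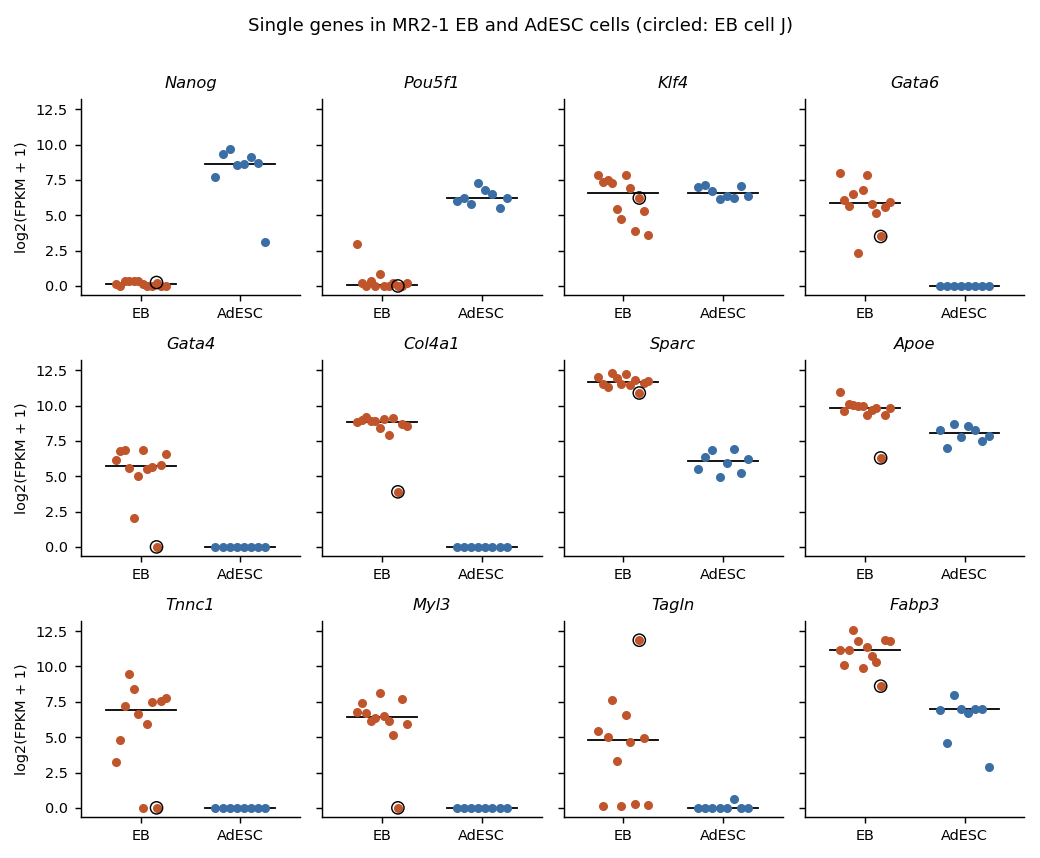
Level of 12 genes, as log2(FPKM + 1), in each MR2-1 EB cell (left) and AdESC cell (right), with lines at the medians and EB cell J circled. Nanog and Pou5f1 separate the groups one way and Gata6, Col4a1 and Sparc the other, while Klf4 overlaps.

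The matrix genes of parietal endoderm were the only one of the 26 lists in which every measured gene was higher by 2 or more. Lists and members were chosen with earlier results of these data known, so that ranking is a description and not independent support. Of 15 listed genes 11 were in the table, all past the filter, and the median difference was 5.05. Every EB cell lay above every AdESC cell for 7 of them, against 0.807% of all genes past the filter. Col4a1, a chain of collagen IV (chromosome 8, 11198423 to 11312889, GRCm38), was at 13.9, 465 and 584 FPKM in EB cells and listed at 0 in all AdESC cells. The lowest EB value was that of cell J, and the other 11 ran from 237 to 584 FPKM. Sparc, a matrix glycoprotein that binds collagen IV, was at 1889, 3224 and 4934 FPKM in EB cells, against 29.5, 67.5 and 123 FPKM in AdESC cells. The laminin chains Lama1 and Lamc1 had medians of 219 and 207 FPKM in EB cells, against 8.41 and 1.88 FPKM in AdESC cells. Cell J was the lowest EB cell for both, at 4.21 FPKM of Lama1 and 10.7 FPKM of Lamc1. Serpinh1, the collagen chaperone Hsp47, was at 37.8, 113 and 171 FPKM in EB cells and at most 0.591 FPKM in AdESC cells. P4ha2, a collagen prolyl hydroxylase subunit, was at 19.5, 167 and 349.9 FPKM in EB cells and listed at 0 in AdESC cells.

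Surface and secreted products of parietal endoderm moved with the matrix. Pth1r, the receptor of parathyroid hormone-related protein that promotes parietal differentiation in the mouse, was at 0, 52.9 and 113 FPKM in EB cells and listed at 0 in AdESC cells, with J the EB cell at 0. Thbd, thrombomodulin, was at 0.0342, 30.4 and 159 FPKM in EB cells and listed at 0 in AdESC cells. Fst, the activin-binding protein follistatin, had medians of 57.5 FPKM in EB cells and 0.861 FPKM in AdESC cells. Plat, a plasminogen activator, and Nid2, a basement membrane linker, differed by 3.20 and 2.35. Over the lines 7 of the 11 rose in the limma test, among them Col4a1 (adjusted p = 0.0065), Sparc (0.0098) and Serpinh1 (0.0024). With the block the calls of P4ha2 (adjusted p = 0.063), Pth1r (0.070) and Fst (0.085) were lost in limma, and without RM1-1 EBs 10 of the 11 were called. Leaving out any 1 AdESC sample took Pth1r to 0.053 to 0.059 and Fst to 0.051 to 0.10, and without MR2-1 EBs Fst was at 0.23. With no filter on low values Col4a1 (adjusted p = 0.12), Sparc (0.17) and Serpinh1 (0.053) missed the threshold in limma too. RM1-1 EB cells had lower levels of Col4a1 than MR2-1 EB cells, at 1.93 to 25.7 FPKM, against 0 to 3.74 FPKM in RM1-1 AdESC cells. The RM1-1 differences were 2.81 for Col4a1, 3.46 for Serpinh1, 1.92 for Sparc and 1.86 for P4ha2, but -0.90 for Lamc1. Lama1 was not higher there, at 0.664 to 4.40 FPKM in RM1-1 EB cells, against 3.72 to 13.7 FPKM in RM1-1 AdESC cells. The difference between the lines was not tested.

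Visceral endoderm genes gave a divided picture. Of 26 listed products 23 were in the table and 11 past the filter; 2 were higher by 2 or more, 3 were lower, and 6 were listed at 0 in all 20 cells. Genes of the uptake machinery were detected at uneven levels. Dab2, an endocytic adaptor also used by parietal endoderm and so not particular to visceral endoderm, was at 2.07, 50.8 and 186 FPKM in EB cells. It was listed at 0 in AdESC cells and rose in the limma test (adjusted p = 0.0068, lost with no filter on low values at 0.11). Cubn, the receptor cubilin, was at 0, 8.48 and 32.6 FPKM in EB cells, with J at 0, against 0 to 3.86 FPKM in AdESC cells. Lrp2, its partner megalin, was at 0 to 11.8 FPKM in EB cells and at most 0.0655 FPKM in AdESC cells. Apoe, an apolipoprotein, was at 77.4, 907 and 1969 FPKM in EB cells, against 126, 270.0 and 409.9 FPKM in AdESC cells. Cell J was at 77.4 FPKM of Apoe, below every AdESC cell, and the other 11 EB cells, at 640.0 to 1969 FPKM, were above all of them.

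The serum proteins that define mature visceral endoderm were at or near 0 in most EB cells, with exceptions in single cells. Afp, alpha-fetoprotein, was at 1.88 FPKM in 1 EB cell and listed at 0 in the other 11 and in all AdESC cells. Ttr, transthyretin, was at 1 FPKM or more in 4 EB cells, with a highest value of 17.9 FPKM in cell B, against at most 1.33 FPKM in AdESC cells. Rbp4, the retinol carrier, was at 35.6 FPKM in EB cell E and 7.99 FPKM in cell C, and listed at 0 in the other 10 EB cells and in all AdESC cells. Apob, Apoa4, Fga and Fgb were listed at 0 in all 20 cells. Apoc1, a small apolipoprotein, was at 0, 0 and 7.65 FPKM in EB cells, against 21.4, 94.5 and 169 FPKM in AdESC cells, and fell in the limma test (adjusted p = 1.5e-05). Apom and Apoa2, also apolipoproteins, differed by -3.40 and -2.76. At 10 FPKM or more, 3 or more of the 23 products were present in 8 of 12 EB cells and in 7 of 8 AdESC cells, so that count did not set EB cells apart.

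**Figure D3:**
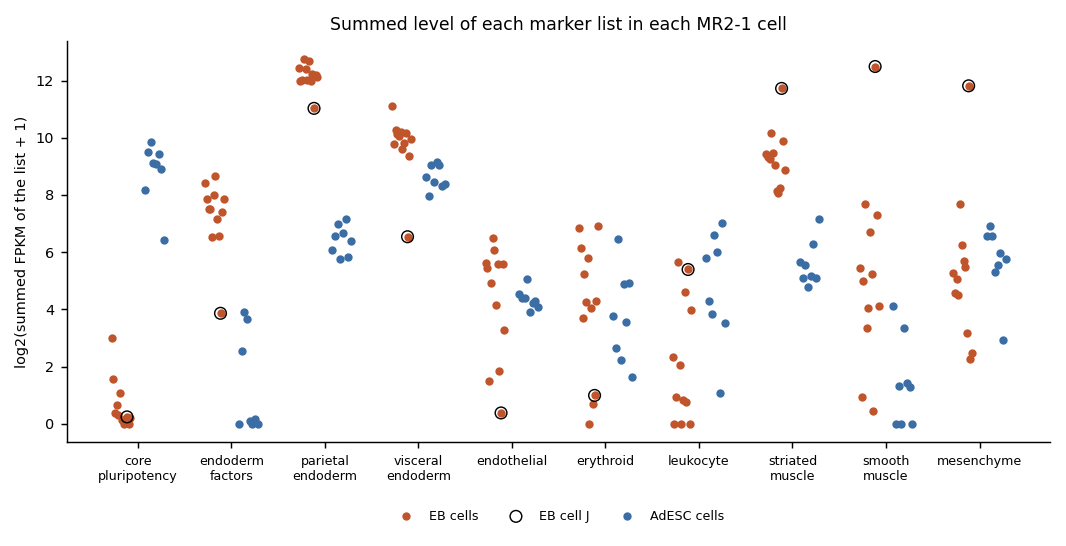
Summed FPKM of each marker list in each MR2-1 cell, as log2(sum + 1), EB cells left and AdESC cells right of each tick, EB cell J circled. The parietal endoderm sums are 2087 to 6908 FPKM in EB cells and 53.2 to 141 FPKM in AdESC cells, and cell J is alone at the top for smooth muscle and mesenchyme.

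No EB cell carried a full endothelial programme, though 1 cell held several of its genes. Of 19 listed endothelial genes 14 were in the table and 6 past the filter, and none differed by 2 or more. The summed list ran from 0.303 to 89.5 FPKM in EB cells, against 13.9 to 32.8 FPKM in AdESC cells. Pecam1, the adhesion protein CD31, was at 0, 3.60 and 22.9 FPKM in EB cells, against 2.42, 13.7 and 26.8 FPKM in AdESC cells, and over the lines it fell in the limma test (adjusted p = 0.014, lost with the block at 0.085 and without RM1-1 EBs at 0.075). Tek, an angiopoietin receptor, and Flt1, a VEGF receptor, reached 35.7 and 31.9 FPKM in EB cells, against 13.4 and 5.76 FPKM in AdESC cells. EB cell E was the only cell with 3 markers at 10 FPKM or more, with 10.5 FPKM of Pecam1, 35.7 FPKM of Tek and 33.3 FPKM of Erg, an ETS factor of endothelium, which was listed at 0 in all AdESC cells. Emcn, Robo4 and Sox18 were listed at 0 in all 20 cells, and Kdr was not analysed here.

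Blood genes were few in any 1 cell. The summed erythroid list ran from 0 to 119 FPKM in EB cells, against 2.08 to 87.4 FPKM in AdESC cells. For the haematopoietic and leukocyte list the sums were 0 to 49.7 FPKM and 1.14 to 127 FPKM. At 10 FPKM or more, each EB cell had 0 to 2 genes of either list. AdESC cells had 0 to 2 erythroid and 0 to 1 haematopoietic genes at that level. Of 14 erythroid genes 10 were in the table and 2 past the filter, and of 19 haematopoietic and leukocyte genes 15 were in the table and 4 past the filter. Gata1, the erythroid master factor, the globins Hbb-bh1 and Hbb-y, and Ptprc, the leukocyte antigen CD45, were listed at 0 in all 20 cells. Hba-x, an embryonic alpha-like globin, was at 40.9, 35.3 and 15.9 FPKM in EB cells A, B and F, against 26.4 FPKM in AdESC cell C. Runx1, a factor of blood formation also used elsewhere, was highest in EB cell J, at 24.7 FPKM, against at most 5.88 FPKM in AdESC cells. Laptm5, a lysosomal protein of leukocytes, ran the other way: it was listed at 0 in all EB cells and at 0.255, 32.6 and 120.2 FPKM in AdESC cells, and fell in the limma test (adjusted p = 0.0021). No EB cell had 3 erythroid or 3 haematopoietic markers at 10 FPKM or more.

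Mesoderm regulators were mostly off. Of 19 listed genes 15 were in the table and 5 past the filter; Hand1, Gata5, Nkx2-5 and Isl1, all factors of heart or lateral mesoderm, were listed at 0 in all 20 cells. Pdgfra, a receptor of both mesoderm and primitive endoderm, was at 2.60, 19.9 and 45.6 FPKM in EB cells and at most 0.348 FPKM in AdESC cells. Snai1, a repressor of epithelial genes that parietal endoderm also uses, was at 3.03, 21.6 and 227 FPKM in EB cells, against 0, 1.91 and 30.9 FPKM in AdESC cells. Snai1 rose in the limma test (adjusted p = 0.0077), a call lost with the block (0.11). Bmp4, a mesoderm-inducing ligand, was at 47.999 FPKM in 1 EB cell and below 1 FPKM in the other 11, against a median of 40.4 FPKM in AdESC cells. No EB cell had 3 of the 15 genes at 10 FPKM or more.

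Striated muscle transcripts stood out, though only part of the list was present. Of 20 listed genes 18 were in the table and 10 past the filter, and 4 were higher by 2 or more. Myh6, Myl2, Actc1, Nppa and Csrp3 were listed at 0 in all 20 cells. At 10 FPKM or more, 3 or more of the 18 genes were present in 10 of 12 EB cells and in none of the 8 AdESC cells. At 1 and 50 FPKM that held for 11 and 9 EB cells, and for 1 and 0 AdESC cells. Tnnc1, the troponin C of heart and slow muscle (chromosome 14, 31208312 to 31211729, GRCm38), was at 0, 125 and 696 FPKM in EB cells and listed at 0 in all AdESC cells. Cells G and J were at 0, cell A was at 8.48 FPKM, and the other 9 ran from 27.2 to 696 FPKM. Myl3, a ventricular and slow muscle myosin light chain, was at 34.1 to 272 FPKM in 11 EB cells and listed at 0 in cell J and in all AdESC cells. Tnnt2, the cardiac troponin T, was at 0, 2.71 and 34.7 FPKM in EB cells and at most 0.624 FPKM in AdESC cells. Tpm1, a tropomyosin used in many cell types, was at 71.3 to 569 FPKM in 11 EB cells and 3383 FPKM in cell J, against 4.24 to 107 FPKM in AdESC cells. Those 9 cells also had Gata6, at 4.13 FPKM in cell E and 34.4 to 112 FPKM in the others. Over the lines Tnnc1 rose in the limma test by 4.60 (SE 0.60, adjusted p = 0.0011) and Tpm1 by 5.44 (SE 0.65, adjusted p = 0.00063); Tnnt2 rose too (adjusted p = 0.0061), a call lost with the block (0.099). Myl3 was listed at 0 in all RM1-1 EB and AdESC cells, and Actc1, at 0 in MR2-1, reached 518 FPKM in RM1-1 EB cells.

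Fabp3, the fatty acid-binding protein of heart (chromosome 4, 130308738 to 130315463, GRCm38), ran in opposite directions in the lines. It was at 389, 2270.0 and 6186 FPKM in MR2-1 EB cells, against 6.49, 124 and 246 FPKM in MR2-1 AdESC cells. In RM1-1 it was at 0 to 12.1 FPKM in EB cells, against 49.5 to 406 FPKM in AdESC cells. In neither line did the groups overlap, and the differences were 4.68 and -4.99. The difference between the lines was not tested.

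EB cell J differed from the other 11 across many genes. It had 29 genes at 50 FPKM or more that were below 1 FPKM in all 11 other EB cells, against 0 to 2 such genes in each of the other cells. The 5 with the largest gap were Postn, a matrix protein of mesenchyme at 509.9 FPKM, Col1a2, a collagen I chain at 412 FPKM, the chemokine Ccl7 at 273 FPKM, the sphingosine phosphate receptor S1pr3 at 212 FPKM and Tubb3, a beta-tubulin at 174 FPKM. Contractile genes were high there: Tagln was at 3708 FPKM, against at most 196 FPKM in the other EB cells, and Myl9 at 1192 FPKM, against at most 123 FPKM. Vim, the intermediate filament vimentin, was at 1549 FPKM, against at most 200.5 FPKM. The summed smooth muscle list came to 5755 FPKM in J, against 0.370 to 207 FPKM in the other 11, and the mesenchyme list to 3604.5 FPKM, against 3.81 to 207 FPKM. J was also alone for the neuroectoderm list, at 649 FPKM, against 0.116 to 22.1 FPKM in the other 11 and 2.13 to 267 FPKM in AdESC cells. J kept Sparc at 1889 FPKM and Serpinh1 at 113 FPKM, and had 10.3 FPKM of Gata6 and 0 of Gata4. Without cell J the MR2-1 differences of Myl9 and Vim were no longer past 2. In RM1-1, Tagln was at 214 to 2099.6 FPKM in EB cells and listed at 0 in AdESC cells, and Vim was at 202 to 1063 FPKM in EB cells, against 0 to 2.25 FPKM in AdESC cells. Over the lines Tagln, Myl9 and Vim rose in the limma test (adjusted p = 0.0028, 0.019 and 0.0066); without RM1-1 EBs Tagln kept its call and Myl9 and Vim did not (both at 0.056). The Myl9 call was also lost in limma without the MR2-1 AdESCs (adjusted p = 0.059) and without the RM1-1 AdESCs (0.056). With no filter on low values Tagln, Myl9 and Vim all missed the threshold in limma (adjusted p = 0.087, 0.18 and 0.12). What sets J apart was not tested.

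Membrane-linked annexin and S100 genes were higher almost as a block. All 10 listed were in the table and past the filter, 8 were higher by 2 or more, and the median difference was 2.62. Anxa5, a phosphatidylserine-binding annexin, was at 15.2, 301 and 829 FPKM in EB cells, against 0, 0.0634 and 37.97 FPKM in AdESC cells, and rose in the limma test by 6.56 (SE 0.48, adjusted p = 1.5e-05). Anxa2, its relative at the cell cortex, was at 366 to 1699 FPKM in EB cells, against 17.0 to 102 FPKM in AdESC cells, without overlap. S100a6, a calcium-binding protein, was at 87.2 to 1765 FPKM in EB cells, against 0 to 38.6 FPKM in AdESC cells, and was not called over the lines (adjusted p = 0.15 in limma).

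BMP and TGF-beta targets were higher in part. All 10 were in the table, 9 past the filter and 4 higher by 2 or more, with a median difference of 0.86. Id1 and Id2, inhibitors of helix-loop-helix factors, had medians of 46.4 and 158 FPKM in EB cells, against 0.287 and 13.3 FPKM in AdESC cells, and both rose in the limma test (adjusted p = 0.00082 and 0.0010). Id3, of the same family, overlapped at 12.1 to 358 FPKM in EB cells and 0.221 to 475 FPKM in AdESC cells. Ctgf, a matricellular protein, had medians of 91.5 FPKM in EB cells and 1.62 FPKM in AdESC cells. Of the epithelial genes, 10 were listed, 7 in the table and 6 past the filter. Krt19, a keratin, was at 40.7 to 339 FPKM in 11 EB cells and 0.0909 FPKM in J, against 5.45 to 40.6 FPKM in AdESC cells, and Jup, plakoglobin, differed by 2.07. Cdh1, E-cadherin, had medians of 4.10 FPKM in EB cells and 23.1 FPKM in AdESC cells, and over the lines it fell in the limma test (adjusted p = 0.031, lost with the block at 0.081, without RM1-1 EBs at 0.18, and without the MR2-1, RM1-1 or RM2-1 AdESCs at 0.075 to 0.088).

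Transcripts of dividing cells were lower and more uneven in EB cells. Of 15 listed G2/M genes 12 were in the table and past the filter, 7 were lower by 2 or more, and the median difference was -3.08. Ube2c was at 0, 14.7 and 606 FPKM in EB cells, against 104, 267 and 678 FPKM in AdESC cells. Cells A, G and J were at 0, and cell K was at 606 FPKM. EB cells had from 1 of the 12 genes at 10 FPKM or more, in cell G, to 12, in cell K. Over the lines 1 of the 12 fell in limma, while 10 did without RM1-1 EBs. In RM1-1 EB cells Ube2c was at 169 to 709 FPKM, against 105 to 766 FPKM in RM1-1 AdESC cells. Of 18 G1/S genes 16 were in the table and 15 past the filter, with 1 higher and 3 lower by 2 or more. The D-type cyclins differed in opposite directions: Ccnd1 was at 0, 0.487 and 14.9 FPKM in EB cells, against 18.9, 64.2 and 91.9 FPKM in AdESC cells. Ccnd2 was at 0.0228, 12.7 and 195 FPKM in EB cells and listed at 0 in AdESC cells, and it rose in the limma test (adjusted p = 0.0030, lost with no filter on low values at 0.085), while Ccnd1 fell (0.049, lost with the block at 0.090, without MR2-1 EBs at 0.23 and without any 1 AdESC sample at 0.087 to 0.12).

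Of the remaining lists, DNA methylation had the median difference farthest from 0, at -2.04. Over all genes past the filter 6.47% were higher and 7.16% lower by 2 or more, so 1 such gene in a short list says little about that list. Of its 9 genes 6 were in the table and past the filter, and 3 were lower by 2 or more: Zfp57, Uhrf1, which recruits the maintenance methyltransferase, and Dnmt3l. Dnmt1 itself overlapped, with medians of 14.5 FPKM in EB cells and 15.2 FPKM in AdESC cells. Of 9 trophoblast genes 7 were in the table and 4 past the filter. Cdx2 and Tfap2c, both trophoblast factors, were listed at 0 in all EB cells, with medians of 5.21 and 16.8 FPKM in AdESC cells. Of 14 neuroectoderm genes 12 were in the table and 5 past the filter, with Tubb3 and Stmn2 lower by 2 or more and both carried by cell J among EB cells. Of 12 immediate early and stress genes 9 were in the table and past the filter, with 3 higher (Atf3, Jun and Fos) and 1 lower (Hspb1) by 2 or more and a median difference of 1.75. Of 13 imprinted genes 9 were in the table and 6 past the filter, with Phlda2 higher and Snrpn lower. Of 11 smooth muscle genes 7 were in the table and 6 past the filter, 2 higher; of 16 mesenchyme genes 15 were in the table and 12 past the filter, with Vim higher and Fn1 lower. Of 15 glycolysis genes 10 were in the table and past the filter, and none differed by 2 or more, with a median of -0.75.

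The largest differences went beyond the marker lists. Among genes at 1 FPKM or more in at least 6 of the 12 EB cells, the 10 largest gains were Srgn, Col4a1, F3, Fxyd3, Hs3st1, P4ha2, Anxa5, Akr1c14, Wfdc1 and Plaur. Srgn, the proteoglycan core serglycin, was at 3.04, 995 and 1747 FPKM in EB cells, with J the lowest and the other 11 at 648 or more, against 0 to 0.290 FPKM in AdESC cells. Its difference of 9.18 was the highest of these 10, yet Srgn was at most 0.228 FPKM in RM1-1 EB cells and was not called over the lines (adjusted p = 0.13 in limma). F3, the coagulation receptor tissue factor, was at 30.8, 222 and 806 FPKM in EB cells and at most 0.124 FPKM in AdESC cells. Plaur, the urokinase receptor, was at 22.9 to 493 FPKM in EB cells and at most 0.193 FPKM in AdESC cells. Hs3st1, a heparan sulfate sulfotransferase, and Fxyd3, a regulator of the sodium pump, had medians of 269 and 181 FPKM in EB cells and were listed at 0 in all AdESC cells. Akr1c14, an aldo-keto reductase, and Wfdc1, a secreted WAP-domain protein, had medians of 273 and 152 FPKM in EB cells and were likewise listed at 0. Cell J was the lowest EB cell for Hs3st1, Fxyd3, Wfdc1 and Plaur.

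The 10 largest losses, among genes at 1 FPKM or more in at least 6 of the 8 AdESC cells, were Nanog, Mt2, Hprt, Slc7a3, Gdf3, Trh, Bex4, Pramel6, Ass1 and Rpl39l. All 10 fell in the limma test over the lines. Mt2, a metallothionein that binds zinc and copper, was at 0, 0 and 33.7 FPKM in EB cells, against 27.5, 554 and 778 FPKM in AdESC cells. Slc7a3, a cationic amino acid transporter, was at most 1.06 FPKM in EB cells and at least 81.2 FPKM in AdESC cells. Ass1, the urea cycle enzyme argininosuccinate synthase, was at 35.2 FPKM in cell J and near 0 in the other 11, against a median of 101 FPKM in AdESC cells. Rpl39l, a ribosomal protein paralogue, was at 1 FPKM or more in 2 EB cells and had a median of 94.2 FPKM in AdESC cells. Hprt, the purine salvage enzyme (X chromosome, 52988078 to 53021660, GRCm38), was listed at 0 in all 12 EB cells and ran from 84.7 to 284 FPKM in AdESC cells. Its value in RM1-1 EB cells was at most 0.133 FPKM, against 210.2 to 216 FPKM in RM1-1 AdESC cells.

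Hprt, Bex4 and Slc7a3 are X-linked, and the X chromosome as a whole was shifted. Of 248 X-linked genes past the filter (445 in the table), 13 were higher by 2 or more (5.24%) and 53 lower (21.4%), against 6.50% and 6.72% of 7665 autosomal genes. The median difference was -0.88 for X-linked genes and -0.17 for autosomal genes. Every EB cell lay below every AdESC cell for 18 X-linked genes (7.26%) and 59 autosomal ones (0.770%). Over the lines 62 of 257 X-linked genes fell in limma (24.1%), against 553 of 7663 autosomal genes (7.22%). In the bulk stem cell libraries of the study, 12 X-linked genes had a mean of 1 FPKM or more in the mouse lines and were listed at 0 in both rat lines. Of those, 8 were past the filter, 6 were lower by 2 or more, and 7 were listed at 0 in all 12 EB cells. They include Hprt, Bex4, at 35.3 to 214 FPKM in AdESC cells, Timm17b, a mitochondrial import subunit at 2.62 to 44.1 FPKM in AdESC cells, and Eras, a stem cell Ras protein. Of 273 autosomal genes of that kind 137 were past the filter, 9 were higher, 13 lower, and 12 were listed at 0 in all EB cells. The bulk libraries gave 89 autosomal genes at 10 FPKM or more in mouse lines and 0 in rat lines. EB cells had 34 to 55 of them at 1 FPKM or more, against 41 to 63 in AdESC cells. Of the 235 X-linked genes past the filter that were above 0 in at least 1 rat line, 47 were lower by 2 or more (20.0%). Without cells J and H the share of all X-linked genes past the filter was 22.8%. The X-linked set was chosen after its values were seen, and the cause of the shift was not tested.

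**Figure D4:**
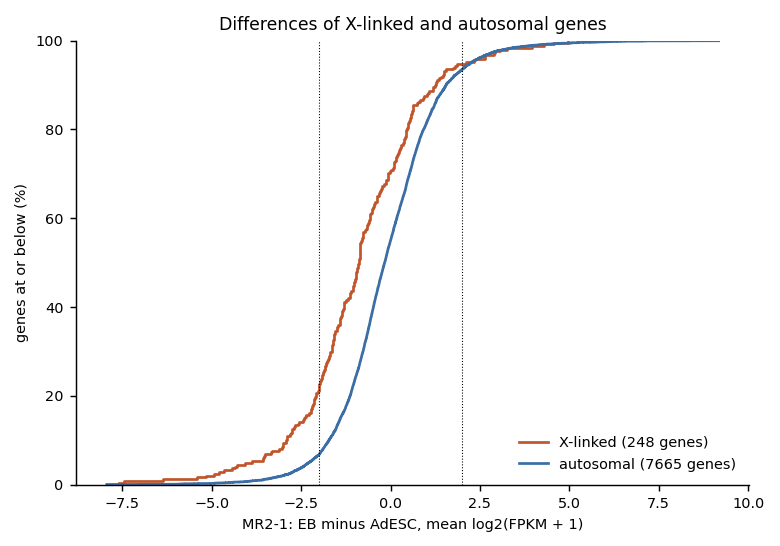
Share of genes (%) at or below each difference of mean log2(FPKM + 1), EB minus AdESC in MR2-1, for 248 X-linked and 7665 autosomal genes, with dotted lines at -2 and 2. The X-linked curve lies to the left, with 21.4% of its genes at -2 or less against 6.72% of autosomal genes.

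RM1-1, the other line with EBs, showed part of the same differences. The MR2-1 and RM1-1 comparisons share no sample. Of 6872 genes past the filter in both lines, RM1-1 EBs were higher for 413 (6.01%) and lower for 791 (11.5%). Of the 431 MR2-1 gains among these genes, 109 were gains in RM1-1 (25.3% of the MR2-1 list and 26.4% of the RM1-1 list) and 19 were losses there. Of the 558 MR2-1 losses, 252 were losses in RM1-1 (45.2% and 31.9%) and 4 were gains. Nanog, Gdf3 and Hprt were lower in RM1-1 by 8.58, 7.19 and 7.71, and Anxa5 was higher by 6.19. Gata4, Sox17 and Foxa2 did not appear in RM1-1, with at most 0.590 FPKM of Gata4 in its EB cells and 0 of the others. What sets the lines apart was not tested.

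**Figure D5:**
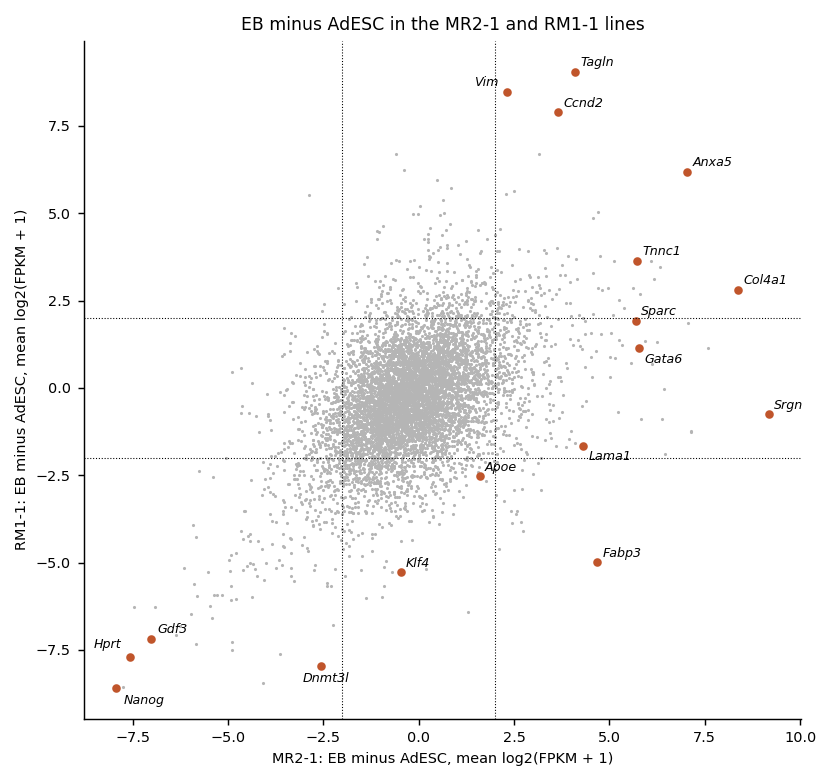
EB minus AdESC difference of mean log2(FPKM + 1) in MR2-1 (horizontal) and RM1-1 (vertical) for 6872 genes past the filter in both lines, with dotted lines at -2 and 2. Nanog, Gdf3 and Hprt lie in the lower left, Anxa5 and Tnnc1 in the upper right, and Fabp3 in the lower right.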

How the data were processed

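RNA was sequenced from single cells captured on a C1 chip; the labels give Trizol extraction and a TruSeq kit. The authors deposited FPKM per cell, made with TopHat2 2.0.10 and Cufflinks 2.1.1 after FastQC 0.10.1 on mm10 and rn5, per the submitters' processing notes; the table itself names no unit, and how mouse and rat values were joined is not given in the sources used here. Read depth is unknown. The spacing of low values gave 0.801 to 1.65 times that of EB cell A, held by only 5.49% to 11.7% of low genes, so no counts were recovered. No doublet call was made, and no cell was filtered out. From the bulk table, 4 per-sample columns were not used.

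From the deposited FPKM, log2(FPKM + 1) was averaged over cells. Genes that averaged 1 FPKM or more over the groups compared were kept, and a difference of 2 was called. Samples were tested with limma 3.58.1 (trend; R 4.3.3) on sample means, 2 EB against 4 AdESC samples, with Benjamini-Hochberg adjustment over all genes and a threshold of 0.05; the test was checked on simulated data. MR2-1 and RM1-1 give both an EB and an AdESC sample, so the cell line pairs them, and the blocked fit is given beside calls it ends. Tables were made with Python 3.11.15 and pandas 2.3.3. Chromosomes and positions came from a RefSeq table of GRCm38.p6 (13295 genes by symbol, 601 by an older symbol, 30 unmatched).

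Named genes are the 10 largest differences each way, the 26 gene lists' members with the largest differences and their defining regulators, Gata6, Col4a1 and Tnnc1, and 5 leading genes of a cell. The members and lists were chosen with earlier results of these data known. Alternatives were another pseudocount, filter, scaling and threshold, log2 of the mean, all single-cell samples in the fit, a replicate block, and leaving out cells or samples.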

Additional observations from a re-analysis of the deposited data

Results flagged for a closer look

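Among 75 genes with an AdESC value of 10 FPKM or more, 22 had 1 AdESC cell far from the other 7 on the log2 scale, and 16 of these were cell H. The measure used marks about 1 in 20 sets of independent, smoothly spread values by chance; that rate does not hold for genes of the same cell or for genes such as Otx2 and Foxa2 that were at 0 in the other 7 cells, so the count is a description. Cell H was low for the stem cell genes Nanog (7.46 FPKM), Zfp57 (58.5 FPKM), Pramel6 (0.177 FPKM), Lin28a (0.5005 FPKM), Dnmt3l (1.55 FPKM) and Tdh (4.52 FPKM). It was also low for Apoc1 (21.4 FPKM), Tubb3 (0.199 FPKM), the adhesion protein Epcam (0.238 FPKM), Anxa2 (17.0 FPKM), Mt2 (27.5 FPKM), Ass1 (15.0 FPKM) and the glycolytic enzyme Aldoa (306 FPKM). It was high for Otx2 (37.7 FPKM), Tek (13.4 FPKM) and the natriuretic peptide Nppb (37.2 FPKM).

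The other 6 lay in other cells. Foxa2 was at 11.6 FPKM in AdESC cell D. Hnf4a was at 14.1 FPKM, Hba-x at 26.4 FPKM and the receptor Pdgfrb at 10.7 FPKM in cell C. The myosin light chain Myl7 was at 16.4 FPKM in cell A, and Fn1, fibronectin, was low in cell G at 4.70 FPKM.

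Fabp3 was higher in MR2-1 EB cells by 4.68 and lower in RM1-1 EB cells by 4.99, as a difference of -4.99, with every EB cell on one side of every AdESC cell in each line. That difference between the lines was not tested.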

How the results depend on the processing

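The 1081 genes past a difference of 2 in MR2-1 became 2560 with a pseudocount of 0.1 and 3389 at a difference of 1; leaving out 1 cell at a time gave 1091 to 1156. Log2 of the mean FPKM gave 1559 genes, with 57.02% of them higher against 47.46%, so the majority turned from lower to higher. Genes shared with RM1-1 in direction, 361, became 968 with a pseudocount of 0.1 and, with log2 of the mean, 483, with 49.3% of them higher against 30.2%. Genes without overlap, 141, became 254 without cells J and H and 144 to 198 with 1 cell left out. The 960 limma calls became 467 with no filter, 550 with all 11 single-cell samples, and 202 with the replicate block by cell line, the pairing of MR2-1 and RM1-1 samples. Leaving out 1 sample gave 496 to 1140: 587, 496, 535 and 522 without the MR1-1, MR2-1, RM1-1 and RM2-1 AdESCs. EB cells with 3 markers at 1 FPKM, and at 50 FPKM, numbered 11 and 2 for endoderm factors and 7 and 0 for endothelial genes. At 1 FPKM they numbered 1 for erythroid, 3 for haematopoietic and 4 for mesoderm genes, and at 50 FPKM 0 for visceral endoderm. Among the 8 AdESC cells, those with 3 markers at 1 FPKM numbered 6 for mesoderm, 2 for haematopoietic and 2 for endothelial genes. They numbered 0 for erythroid genes and for endoderm factors. Of 85 named genes past 2, log2 of the mean dropped 5 (Dnmt3l, Fn1, Tubb3, Stmn2 and Ube2c), the pseudocount dropped Krt19, and leaving out 1 cell dropped, among others, Tnnt2, Myl9, Vim or Krt19. None of those 85 differences changed sign in a setting run. The split of limma calls turned from more falls to more rises without MR2-1 EBs, and genes not called over the lines changed sign, among them Apoe, at -0.56 with both EB samples and 1.505 without RM1-1 EBs (adjusted p = 0.68 and 0.0068 in limma). With all 11 samples in the fit the limma calls of Gata6, Fst, P4ha2, Dab2, Snai1, Tagln, Myl9, Cdh1 and Ccnd1 were lost (adjusted p = 0.054 to 0.20). The causes were not tested, and without read counts no detection floor can be given.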

Other observations

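Genes that fold and modify collagen were higher in EB cells well beyond collagen itself; these families were chosen after their values were seen. Of 31 genes for collagen modification and endoplasmic reticulum folding in the table, 30 were past the filter and 20 were higher by 2 or more, none lower. Over all 7929 genes past the filter 6.47% were higher by 2 or more. Every EB cell lay above every AdESC cell for 10 of the family, against 0.807% of all genes. In RM1-1 the differences ran from -2.49 for Crtap to 3.46 for Serpinh1. Plod2, a lysyl hydroxylase, was at 29.9, 83.1 and 157 FPKM in EB cells, against 0, 0 and 22.999 FPKM in AdESC cells. Ckap4, a reticulum sheet protein, was at 64.9 to 286 FPKM in EB cells, against 0 to 12.7 FPKM in AdESC cells. Creb3l1, a transcription factor of collagen-secreting cells, had medians of 60.7 FPKM in EB cells and 0 in AdESC cells. It was not called over the lines (adjusted p = 0.051 in limma). The table held 24 collagen genes, of which 8 were past the filter, and Col4a1 was the only one higher by 2 or more. Cell J held the highest value of Col1a1, at 470.5 FPKM, against at most 9.97 FPKM in the other EB cells.

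Lysosomal proteases were higher in part. Ctsl, cathepsin L, was at 370.1, 2797 and 7355 FPKM in EB cells, with J the lowest, against 67.3, 150.5 and 468 FPKM in AdESC cells, and Ctsa and Ctsh differed by 3.41 and 2.54. Germline-linked Tex19.1 was at 0 to 59.3 FPKM in EB cells, against 67.3 to 246 FPKM in AdESC cells. The table held 23 Hox genes, and 17 of them were listed at 0 in every EB cell.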
